A study of Mus musculus with 17 samples.

Results

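A pair of mouse embryos at E9.5, 1 wild type and 1 mutant for Disp1, carried almost no transcript of Cdx4. Cdx4 encodes a caudal-type homeodomain factor of the growing tail end of the embryo. The pair was picked by that value alone: of 8 E9.5 embryos, pooled over genotype, these 2 had a Cdx4 level under 1 TPM (a transcript level per unit of length, scaled to the same total in each library), and they are 2 of the 17 embryos of the whole series. The low wild type (replicate 3) read 0.065 TPM and the low mutant (replicate 1) read 0.243 TPM. The next lowest, mutant replicate 2, read 8.36 TPM, well above the limit, and the other 5 embryos read between 18.4 and 25.0 TPM. Because the pair was chosen on a measured level, every difference between it and the other embryos is given as a description, with no test.

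The series asks, by its title and design, how mutation of Disp1 or Myo10 alters embryos. Disp1 encodes the membrane protein that releases cholesterol-modified Hedgehog ligands, and Myo10 encodes myosin X, a motor of filopodia. All embryos were C57BL/6J, and each library holds the RNA of 1 whole embryo. At E9.5 there were 4 wild types (Disp1 WT) and 4 embryos with one CS allele and one INDEL allele (Disp1CS/INDEL), bred from Disp1CS/+ mothers and Disp1INDEL/+ fathers. At E8.5 there were 4 wild types (Myo10+/+) and 5 embryos homozygous for m1J (Myo10m1J/m1J), from parents heterozygous for m1J. Neither allele is tied to a tissue or promoter in the labels, which give neither the litter nor a somite count of an embryo. The p-values below set the genotype difference against the spread between single embryos of a genotype. With the litters unknown, whether those embryos are independent cannot be stated.

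The tail end of an embryo at this age is a growth zone. In the tail bud, bipotent progenitors marked by T, Sox2 and Nkx1-2 supply both spinal cord and mesoderm under Wnt and FGF signals, and Cdx factors and retinoic acid breakdown by Cyp26a1 keep the zone going. Mesoderm leaving it becomes presomitic mesoderm, driven by Msgn1 and Tbx6, in which an oscillator of Notch targets such as Hes7 spaces the somites. Hox genes switch on in the order of their paralogue groups, so that the groups with the highest numbers are expressed latest and nearest to the tail.

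Promoter sequences are shown for Cdx4, which chose the pair, for Msgn1 and Tbx6, the lower genes with the largest differences among those with a single RefSeq promoter entry, and for T, added after its values and motifs were seen. Each run is the 250 bases before the start site in 5′ to 3′ direction of the gene, from RefSeq on build GRCm38.p6, which is older than the build of the expression table. Capitals mark the letters searched, on either strand: CTTTGA, the core bound by TCF/LEF factors, TTTATG, bound by Cdx factors, and AGGTGT, bound by T-box factors.
Cdx4, chrX:103321148-103321397, plus strand: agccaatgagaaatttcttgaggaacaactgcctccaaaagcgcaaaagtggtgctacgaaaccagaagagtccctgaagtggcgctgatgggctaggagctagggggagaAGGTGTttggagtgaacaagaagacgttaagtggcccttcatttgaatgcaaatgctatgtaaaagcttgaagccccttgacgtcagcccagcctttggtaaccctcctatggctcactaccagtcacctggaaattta
Msgn1, chr12:11208949-11209198, minus strand: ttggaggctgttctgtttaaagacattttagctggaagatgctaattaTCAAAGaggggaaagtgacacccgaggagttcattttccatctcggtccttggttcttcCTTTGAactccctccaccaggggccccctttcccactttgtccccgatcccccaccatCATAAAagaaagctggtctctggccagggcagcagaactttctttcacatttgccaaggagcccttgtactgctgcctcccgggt
Tbx6, chr7:126781233-126781482, plus strand: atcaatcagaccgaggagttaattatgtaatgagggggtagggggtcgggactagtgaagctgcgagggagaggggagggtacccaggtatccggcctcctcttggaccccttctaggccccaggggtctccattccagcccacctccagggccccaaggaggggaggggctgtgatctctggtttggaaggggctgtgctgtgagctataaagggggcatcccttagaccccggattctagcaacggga
T, chr17:8434173-8434422, plus strand: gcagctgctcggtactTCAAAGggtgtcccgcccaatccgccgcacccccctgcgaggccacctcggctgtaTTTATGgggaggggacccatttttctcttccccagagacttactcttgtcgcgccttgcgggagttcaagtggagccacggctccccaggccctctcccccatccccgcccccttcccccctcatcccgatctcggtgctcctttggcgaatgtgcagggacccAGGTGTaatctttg
In the Msgn1 window the TCF/LEF core stood at -202 and -143 from the start and the Cdx-type letters at -85, whereas Tbx6 held none of the 3 motifs. The T window held all 3, at -234 (TCF/LEF), -178 (Cdx) and -14 (T-box), and the Cdx4 window held only the T-box letters, at -139. No match overlapped another in these windows. Promoter entries of 23 of the 33 lower genes, Cdx4 counted, were used. Pmaip1 was left out by its place in the genome, whether or not it has an entry. The comparison sets below had no such limit, so the shares are not strictly like for like. The TCF/LEF core was in 6 of those 23 (26.1%), against 13.8% of all 32851 RefSeq promoters of the table and 12.4% of 10612 genes tested. The Cdx letters were in 5 of 23 (21.7%, against 10.8% and 7.03%), and the T-box letters in 4 of 23 (17.4%, against 11.8% and 10.98%). A match is only a match of letters, and with 23 promoters 1 or 2 of them move these shares by several percentage points.

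Few genes were low along with Cdx4. For every gene that reached 1 TPM in 2 or more of the 8 embryos, the mean of the 3 other embryos of the same genotype (the mates) was subtracted from the low embryo on the scale log2(TPM + 1). A gene was counted as lower where both differences were -1 or less and both low embryos lay below all 6 others. By this rule 32 of 13711 genes other than Cdx4 were lower, 0.233% of the genes measured. The opposite rule counted 4 genes as higher, 0.0292%. For 12956 genes (94.5%) both low embryos were within 0.5 of their mates, and the median difference of all genes was -0.04 in the low wild type and 0.10 in the low mutant. Being below all 6 others by any amount applied to 304 genes (2.22%), and being above all 6 to 431 genes (3.14%). In a whole embryo, fewer cells of a type and less RNA per cell cannot be told apart.

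**Figure D1:**
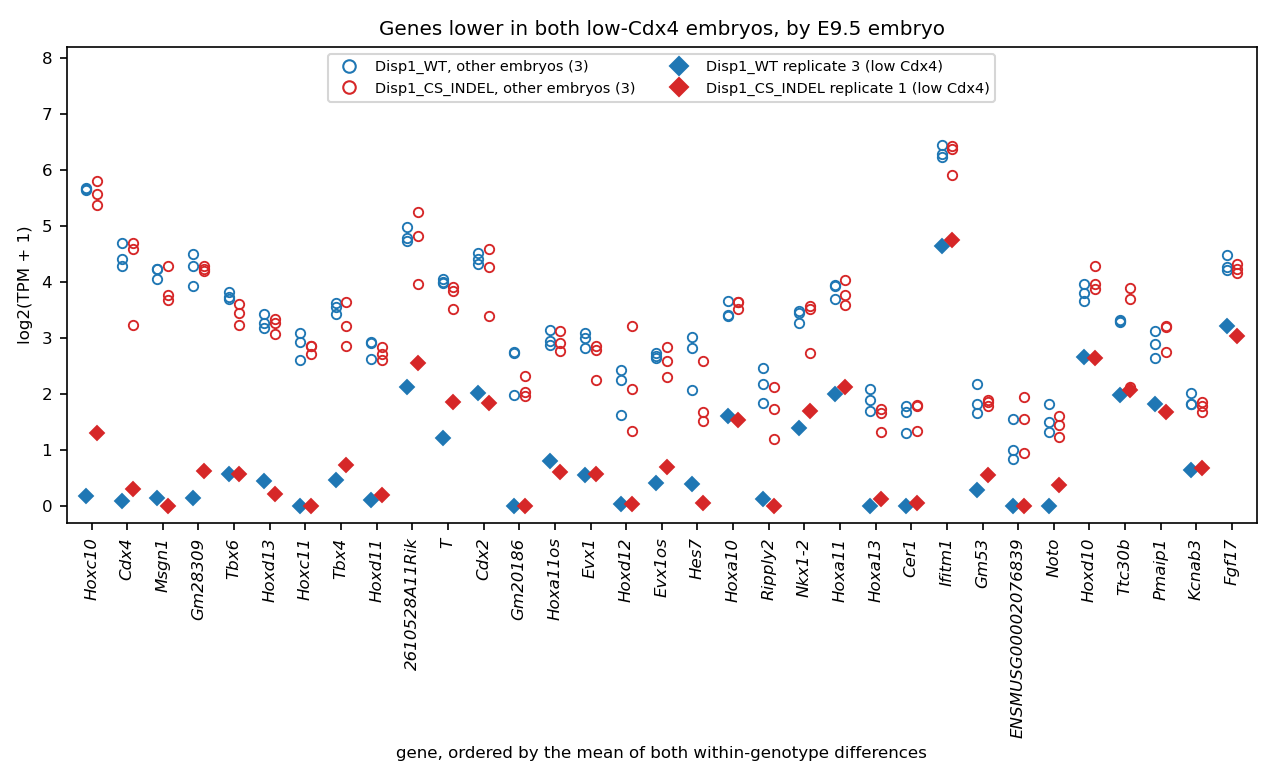
Level of the 32 lower genes and Cdx4 in each of the 8 E9.5 embryos, as log2(TPM + 1), ordered by the mean of both within-genotype differences. Blue is Disp1 WT (Disp1_WT) and red Disp1CS/INDEL (Disp1_CS_INDEL), filled diamonds are the low-Cdx4 pair and open circles the 3 other embryos of each genotype. By the rule of choice, both diamonds lie below all 6 circles for every gene, and Ttc30b is the gene in which a circle (3.36 TPM) comes nearest to a diamond (3.21 TPM).

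The label of the pair, embryos lacking caudal transcripts, holds for some caudal genes and not for others. Of the 32 lower genes, 16 were under 10% of their mates' mean in both low embryos, 7 stayed over 20% in both, and 9 lay elsewhere. The median over the 32 genes was 6.02% of the mates in the low wild type and 8.66% in the low mutant. Genes listed at 0 TPM numbered 6 in the low wild type and 5 in the low mutant, 3 of them in both. Other genes of the caudal end, among them Fgf8, Wnt3a and Sox2, were near the level of the mates, as described below. The pair is therefore called the low-Cdx4 embryos here.

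Several genes of tail bud progenitors were lower, and their residual levels differed. Cdx4 read 20.3, 18.4 and 24.9 TPM in the other wild types and 8.36, 25.0 and 23.3 TPM in the other mutants. Its paralogue Cdx2 read 20.3, 21.9 and 19.1 TPM in the other wild types against 3.08 TPM in the low one, and 9.51, 23.1 and 18.4 TPM in the other mutants against 2.59 TPM. Thus Cdx2 kept 15.1% and 15.2% of the mates' means where Cdx4 kept 0.307% and 1.29%. The third family member, Cdx1, was not counted as lower, with 5.03 TPM against 8.96 ± 0.146 in the wild types (SD, n = 3) and 6.38 TPM against 8.62 ± 3.65 in the mutants (SD, n = 3). One other mutant (5.899 TPM) was below the low mutant for Cdx1.

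T, also called Brachyury, the T-box factor of the primitive streak, tail bud and notochord, read 15.1, 14.8 and 15.7 TPM in the other wild types and 1.32 TPM in the low one. In the mutants T read 10.4, 13.99 and 13.4 TPM against 2.62 TPM. The low mutant thus kept 20.8% of its mates' mean and the low wild type 8.72%, and neither overlapped the other embryos. Nkx1-2, a homeobox gene of the caudal lateral epiblast, read 1.62 TPM against 9.60 ± 0.823 (SD, n = 3) and 2.25 TPM against 9.03 ± 2.95 (SD, n = 3). Evx1, an even-skipped homologue of the posterior streak, read 0.466 TPM against 6.88 ± 0.716 and 0.497 TPM against 5.31 ± 1.35 (SD, n = 3 each). Fgf17, an FGF ligand of the tail bud and also of the midbrain-hindbrain boundary and forebrain, was the mildest of the 32, with 8.27 TPM against 19.1 ± 1.96 and 7.18 TPM against 17.9 ± 1.09 (SD, n = 3 each). It kept 43.4% and 40.1% of the mates' means.

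In all, 5 of the 27 tail bud genes tested besides Cdx4 were lower (T, Cdx2, Nkx1-2, Evx1 and Fgf17), and the list's median differences were -0.46 and -0.27. Cyp26a1, the retinoic acid hydroxylase, was the 1 further member that passed a milder limit of -0.5 in both, a limit that 53 of all genes passed (0.387%). It read 7.98 TPM against 15.6 ± 1.65 and 7.97 TPM against 13.8 ± 0.943 (SD, n = 3 each). By any amount, 13 of these 27 genes lay below all 6 others, the 5 lower ones included, and 1 lay above. Over all genes, 2.22% lay below and 3.14% above. The members of the 13 named next passed neither limit. Wnt5a, a noncanonical Wnt ligand of the tail bud and limb, read 18.6 and 19.9 TPM in the low embryos (64.8% and 75.7% of the mates). Fgf3, an FGF ligand, read 2.61 and 2.90 TPM (48.4% and 65.4%). The peptide hormone gene Apela read 10.4 and 10.8 TPM (65.1% and 69.7%), and the Hox gene Hoxb1, expressed in the hindbrain and again at the tail end, 20.6 and 22.5 TPM (63.4% and 74.5%).

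Wnt3a and Fgf8, ligands that maintain the tail bud, were close to the level of the mates, unlike Fgf17. Wnt3a read 13.2 TPM in each low embryo, and 14.6 ± 0.735 and 14.2 ± 0.663 in the mates (SD, n = 3 each). That is 90.5% and 93.2%, below all 6 others but by a small amount. Fgf8 read 17.7 TPM against 21.03 ± 2.69 and 19.7 TPM against 23.1 ± 0.817 (SD, n = 3 each), 84.3% and 85.4%, and another wild type (18.0 TPM) lay between the low embryos. Fgf8 and Wnt3a are also expressed outside the tail, in the midbrain-hindbrain boundary, limb ectoderm or dorsal midline, so a whole-embryo level does not isolate the caudal part. Sox2, shared by progenitors and the whole neural tube, read 138 and 140 TPM in the low embryos, above all 6 others (103 to 127 TPM). The Wnt-responsive factors Sp5 and Sp8 read 13.2 and 11.5 TPM in the low wild type and 18.1 and 13.05 TPM in the low mutant, within or close to the range of the mates.

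In presomitic mesoderm the factors Msgn1 and Tbx6 were lower, and most other members were not. Msgn1, a bHLH factor needed for progenitors to become presomitic mesoderm, read 17.9, 15.6 and 17.8 TPM in the other wild types and 0.104 TPM in the low one. Its levels in the mutants were 11.9, 18.6 and 12.6 TPM, and it was listed at 0 in the low mutant. Msgn1 is expressed in few places besides presomitic mesoderm, and no other embryo was near the low pair.

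Tbx6, the T-box factor that directs cells to paraxial mesoderm rather than neural fate, read 13.2, 11.9 and 12.3 TPM in the other wild types against 0.495 TPM, and 8.40, 11.3 and 9.91 TPM in the other mutants against 0.491 TPM. The low embryos thus kept 3.97% and 4.98%. The Delta ligand Dll1, which also acts in the neural tube, was at 95.8% and 95.4% of the mates (30.8 and 30.5 TPM). Its relative Dll3 was below all 6 others, at 71.2% and 65.5% (17.3 and 15.9 TPM).

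Of the 20 presomitic genes tested 2 were lower, and the list's median differences were -0.25 and -0.05. By any amount, 7 of the 20 lay below all 6 others, where 2.22% of all genes did, and 0 lay above. Fgf18 passed the milder limit, with 8.39 TPM against 13.004 ± 1.39 and 6.66 TPM against 10.03 ± 0.160 (SD, n = 3 each). Lef1, a nuclear partner of beta-catenin, and the Wnt target Axin2 were at 72.1% and 96.9% in the low wild type and at 96.1% and 117% in the low mutant.

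Among segmentation clock and somite boundary genes, 3 of 18 were lower: Hes7, Ripply2 and Cer1. Hes7, the oscillating repressor of the clock, read 6.04, 7.13 and 3.22 TPM in the other wild types and 0.318 TPM in the low one. Its level in the other mutants was 2.19, 5.06 and 1.87 TPM, against 0.0377 TPM. The mates themselves thus spanned more than for most genes here, from 1.87 to 7.13 TPM. Ripply2, a repressor at the forming boundary, read 0.0868 TPM against 3.54 ± 0.947 and was listed at 0 against 2.33 ± 1.02 (SD, n = 3 each). Cer1, a secreted antagonist transcribed in the newest somites, was listed at 0 in the low wild type and read 0.0392 TPM in the low mutant, against 2.04 ± 0.502 and 2.17 ± 0.544 (SD, n = 3 each).

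Mesp2, which positions the boundary, passed only the milder limit, with 0.525 and 0.280 TPM where the 6 others read 0.817 to 1.47 TPM. Its neighbour Mesp1 did not pass the filter on low values and was listed at 0 in both low embryos. The Notch-pathway genes Lfng, Hes1, Hes5 and Nrarp, which also serve the nervous system, were not lower: Lfng read 49.0 and 52.0 TPM, where the others read 44.2 to 51.7 TPM. The list's median differences were -0.16 and 0.01.

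Somites already formed showed no such difference. Of 17 genes of somites, sclerotome and myotome, 0 were lower and 0 passed the milder limit, with medians of -0.03 and 0.11. Meox1, a homeobox gene of somites, read 109 TPM against 144 ± 12.04 and 119 TPM against 126 ± 12.6 (SD, n = 3 each). Twist1, a mesenchymal bHLH factor, read 155 and 168 TPM in the low embryos and 147 to 176 TPM in the others.

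The posterior Hox genes gave the sharpest step. Of 10 genes of paralogue groups 10 to 13 that could be tested, 9 were lower and the other, Hoxc12, passed the milder limit. Of 23 genes of groups 1 to 8, 0 were lower and 1 (Hoxd1) passed the milder limit. Medians were -1.98 and -2.12 for groups 10 to 13, and -0.04 and 0.10 for groups 1 to 8. Group 1 had the lowest medians of these groups, -0.63 and -0.41, against -0.56 and -0.40 in the 4 genes of group 9.

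Hoxc10, the gene of the 32 with the largest difference, read 49.9, 50.5 and 48.9 TPM in the other wild types and 0.134 TPM in the low one, 0.269% of the mates. In the mutants it read 40.8, 54.6 and 46.8 TPM against 1.46 TPM, 3.09% of the mates. The log2 differences were -5.48 and -4.29. Its paralogues kept more: Hoxa10 read 2.07 and 1.92 TPM (20.1% and 17.1% of the mates), and Hoxd10 read 5.34 and 5.29 TPM (40.8% and 33.8%). A single paralogue group therefore held both nearly absent and partly kept transcripts.

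In group 11, Hoxc11 was listed at 0 in both low embryos, where the others read 5.09 to 7.51 TPM. Hoxd11 read 0.0758 and 0.146 TPM, against 5.07 to 6.62 TPM in the others. Hoxa11 kept 22.1% and 26.1%, with 2.99 and 3.40 TPM against 13.5 ± 1.37 and 13.03 ± 2.18 (SD, n = 3 each). In each of groups 10 and 11 the gene of the C cluster was thus the one with the least left.

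In group 12, Hoxd12 read 0.0252 and 0.0269 TPM, and the others spread from 1.53 to 8.27 TPM. Hoxc12 was listed at 0 in both low embryos, but its level elsewhere was 0.387 to 2.89 TPM, too little for a difference of 1 in the wild type. Group 13 was represented by Hoxd13, with 0.360 and 0.165 TPM against 7.37 to 9.84 TPM, and by Hoxa13, listed at 0 and at 0.0851 TPM against 1.52 to 3.26 TPM. Hoxb13 and Hoxc13 did not pass the filter on low values.

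Group 9 lay between. Hoxa9 passed the milder limit, with 3.61 TPM against 7.50 ± 1.13 and 4.42 TPM against 7.90 ± 1.20 (SD, n = 3 each). Hoxc9 read 6.28 and 8.55 TPM (57.6% and 69.9%) and Hoxd9 read 14.2 and 16.6 TPM (73.2% and 78.1%), both below all 6 others. Hoxb9 was not low at all: 99.9 and 113 TPM, where the others read 101 to 109 TPM. Within groups 1 to 8, the largest negative difference in the low wild type was -1.15, in Hoxd1, for which mutant replicate 2 (5.22 TPM) lay next to the low mutant (5.12 TPM).

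**Figure D2:**
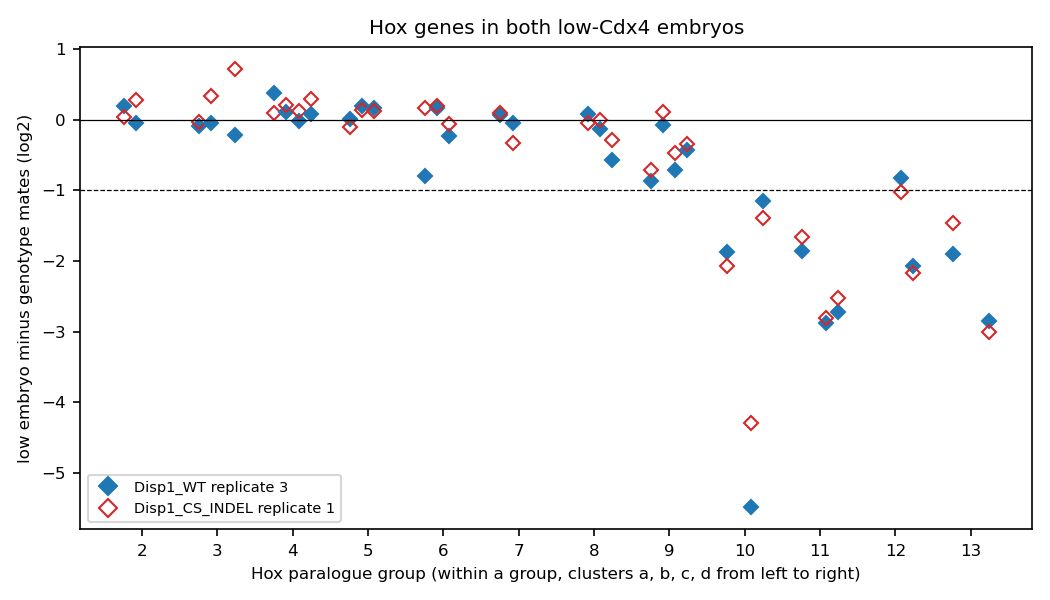
Difference of each low-Cdx4 embryo from its 3 genotype mates on log2(TPM + 1), for Hox genes of paralogue groups 2 to 13, with clusters a to d from left to right inside a group. Filled blue diamonds are Disp1_WT replicate 3, open red diamonds Disp1_CS_INDEL replicate 1, and the dashed line marks -1. Groups 2 to 8 scatter around 0, most points of group 9 lie below 0, and the points of groups 10 to 13 run from -0.83 for Hoxc12 down to -5.48 for Hoxc10.

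Of 8 noncoding RNAs listed for the Hox clusters that could be tested, 1 was lower (Hoxa11os) and 3 passed the milder limit, Hoxa11os among them, with medians of -0.24 and -0.04 over the 8. Further noncoding transcripts were among the 32 lower genes. Gm28309, which overlaps Hoxd11 and Hoxd10 on the same strand, read 0.102 TPM against 18.1 ± 3.67 and 0.547 TPM against 18.0 ± 0.573 (SD, n = 3 each). Hoxa11os, opposite Hoxa11, read 0.748 and 0.532 TPM against 5.84 to 7.89 TPM in the others. Evx1os, opposite Evx1, read 0.338 and 0.632 TPM against 3.97 to 6.18 TPM. The library kit does not record strand, so reads of these transcripts and of the genes they overlap cannot be told apart, and in GENCODE M21 8 of the 33 lower genes, Cdx4 counted, overlap a gene on the opposite strand. Gm53, a noncoding RNA between Hoxb13 and Hoxb9, read 0.224 and 0.462 TPM against 2.16 to 3.51 TPM.

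Outside these lists the lower genes were few. Among 430 genes of all other lists, which are neither Hox genes nor in one of the 3 caudal lists, 3 were lower (0.698%). In the caudal lists together 10 of 65 were (15.4%), and over all genes measured 0.233%. The lists were written with the pattern already known, so their share is a description. The 3 genes were Tbx4, Noto and Pmaip1.

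Tbx4, a T-box gene of the hindlimb field, allantois and cloacal region, read 10.8, 11.4 and 9.78 TPM in the other wild types and 0.375 TPM in the low one. In the mutants it read 11.6, 6.28 and 8.28 TPM against 0.661 TPM, so that the low embryos kept 3.53% and 7.59%. Its forelimb counterpart Tbx5, named after its values were seen, was kept, at 108% and 129% of the mates (9.11 and 10.8 TPM). Pitx1, a homeobox gene of hindlimb and also of the oral region, likewise named after its values were seen, was in between: 14.99 TPM against 39.2 ± 3.36 and 20.2 TPM against 37.1 ± 4.24 (SD, n = 3 each). Of 18 genes of hindgut, cloaca, allantois and hindlimb, 1 was lower, with medians of -0.23 and 0.06, and of 11 forelimb genes 0 were lower.

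Noto, a homeobox gene of the node and caudal notochord, was listed at 0 in the low wild type and read 0.298 TPM in the low mutant, where the others read 1.36 to 2.52 TPM. The remaining notochord and node list was kept apart from T: Shh, the ligand made by notochord and floor plate, read 24.1 and 23.8 TPM, at 101% and 121% of the mates. Pmaip1, which encodes the p53-induced BH3 protein Noxa, read 2.55 TPM against 6.48 ± 1.24 and 2.22 TPM against 7.41 ± 1.47 (SD, n = 3 each). It was the 1 lower gene of 15 in the list of p53 response and cell death, and Bax, another gene of that list, read 200 and 202 TPM where the others read 187 to 213 TPM.

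Of the 32 genes, 9 were in no list. The highest was Ifitm1, an interferon-induced transmembrane protein gene also expressed in early mesoderm, with 76.9, 74.3 and 86.9 TPM in the other wild types against 24.1 TPM, and 59.0, 81.7 and 85.6 TPM in the other mutants against 25.8 TPM. It kept 30.4% and 34.3%. 2610528A11Rik, a small protein-coding gene, read 3.39 TPM against 27.7 ± 2.69 and 4.85 TPM against 26.4 ± 11.2 (SD, n = 3 each). Beside the noncoding Gm28309, Evx1os and Gm53, the rest were the noncoding Gm20186 (listed at 0 in both), Ttc30b, an intraflagellar transport gene, the unnamed ENSMUSG00002076839 (listed at 0 in both) and Kcnab3, a potassium channel subunit gene named after its values were seen. Ttc30b was the least separated, since mutant replicate 4 read 3.36 TPM and the low mutant 3.21 TPM.

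**Figure D3:**
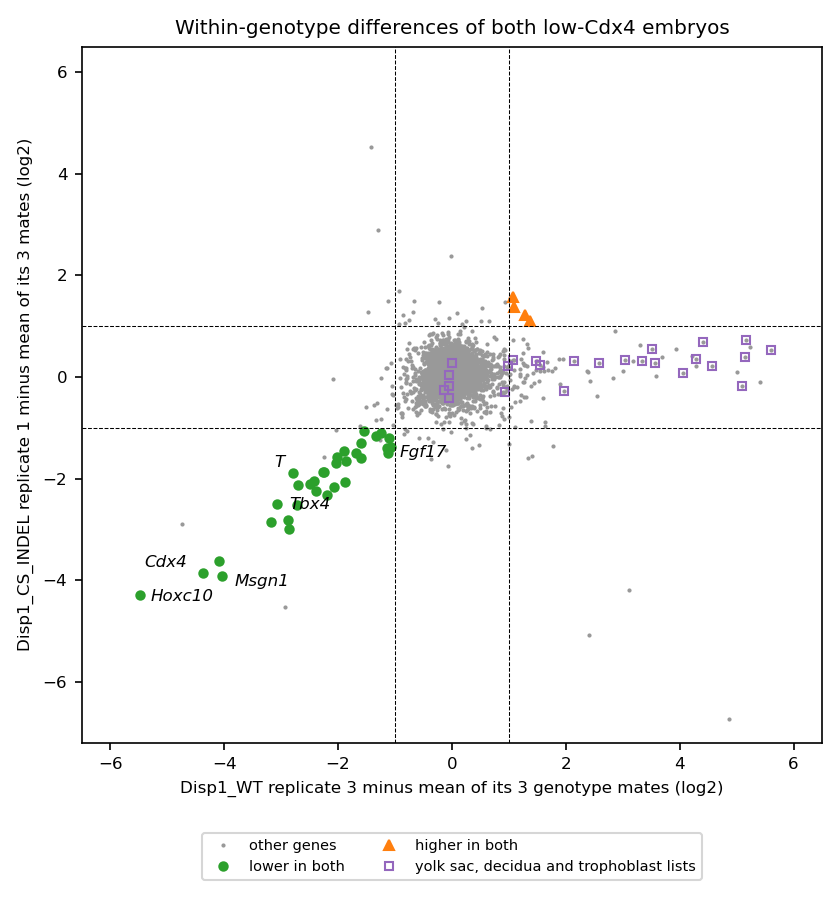
Difference of each low-Cdx4 embryo from its 3 genotype mates on log2(TPM + 1), 1 point per gene, with the low wild type on the horizontal and the low mutant on the vertical axis. Green points are the 32 lower genes and Cdx4, orange triangles the 4 higher genes, purple squares the yolk sac, decidua and trophoblast lists, and dashed lines mark -1 and 1. Most genes cluster around 0, and the lower genes extend to the lower left. The purple squares spread to the right, mainly along the axis of the low wild type.

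Each low embryo also had differences of its own. In the low wild type 58 genes were lower by at least 1 and 102 higher, and in the low mutant 63 were lower and 28 higher, Cdx4 counted. Genes lower by 1 in both numbered 38, of which 33 with Cdx4 also lay below all 6 others. The remaining 5, named after their values were seen, overlapped other embryos: Xist, Fbxl17, Gm42047, Gm47761 and Gm49450. Xist, the RNA of the inactive X, read over 12 TPM in wild-type replicate 4 and mutant replicate 4 only, and the Y-linked Ddx3y was at 0 in those same embryos and at 10.8 and 13.7 TPM in the low pair. Over all genes the differences of both low embryos had a Pearson r of 0.155, given as a description across genes, which are not independent.

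The summed levels of yolk sac genes and of decidua and trophoblast genes were higher in the low wild type than in any other embryo, the low mutant included. Apoa1, an apolipoprotein of visceral yolk sac endoderm, read 246 TPM in the low wild type, 6.28 TPM in the low mutant and at most 12.1 TPM in the others. Afp, also made there, read 210 TPM in the low wild type, 27.2 TPM in the low mutant and 18.0 to 31.1 TPM in the others. The 16 listed yolk sac genes summed to 1171 TPM in the low wild type, 91.3 TPM in the low mutant and 58.2 to 117 TPM in the others. For the 14 of them that were tested, differences in the low wild type ran from 1.08 to 5.16 on the log2 scale.

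The 16 listed decidua and trophoblast genes, of which 11 were tested, summed to 813, 67.8 and 58.1 to 98.2 TPM in the same order. Prl8a2, a prolactin-family gene of the decidua, read 551 TPM in the low wild type and 4.79 TPM in the low mutant. In the low mutant both sums lay inside the range of the others. The part of this RNA in the lower genes was not tested. Transcripts of the mitochondrial genome were 3.69% of TPM in the low wild type and 2.63% in the low mutant, against 2.85% to 4.41% in the others. Genes at 1 TPM or more numbered 13408 and 13338, against 13103 to 13380 in the others. Depth itself is unknown, since TPM does not keep it.

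Lists for other parts of the body held few lower genes. Of 19 forebrain genes, 1 was lower (Fgf17), and Otx2, a homeobox gene of forebrain and midbrain, read 23.6 and 24.5 TPM where the others read 19.4 to 23.7 TPM. None of the lists for midbrain and hindbrain (17 genes), ventral neural tube (17), dorsal neural tube (16), early neurons (25), neural crest (15), pharyngeal arches (23), endothelium (14), red blood cells (16), gut endoderm (16) or surface ectoderm (15) held a lower gene. Kidney and intermediate mesoderm had 3 of 15 lower, which were Hoxa11, Hoxc11 and Hoxd11.

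Heart genes leaned the other way by small amounts. Of 24 heart genes, 8 lay above all 6 others, where 3.14% of all genes did, with medians of 0.06 and 0.32 beside -0.04 and 0.10 for all genes. Myl2, a ventricular myosin light chain gene, read 149 and 143 TPM against 111 to 124 TPM, and Myl7, its atrial counterpart, 783 and 827 TPM against 586 to 751 TPM. None of the 8 passed a limit of 0.5 in both, which 11 genes did (0.0802%).

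**Figure D4:**
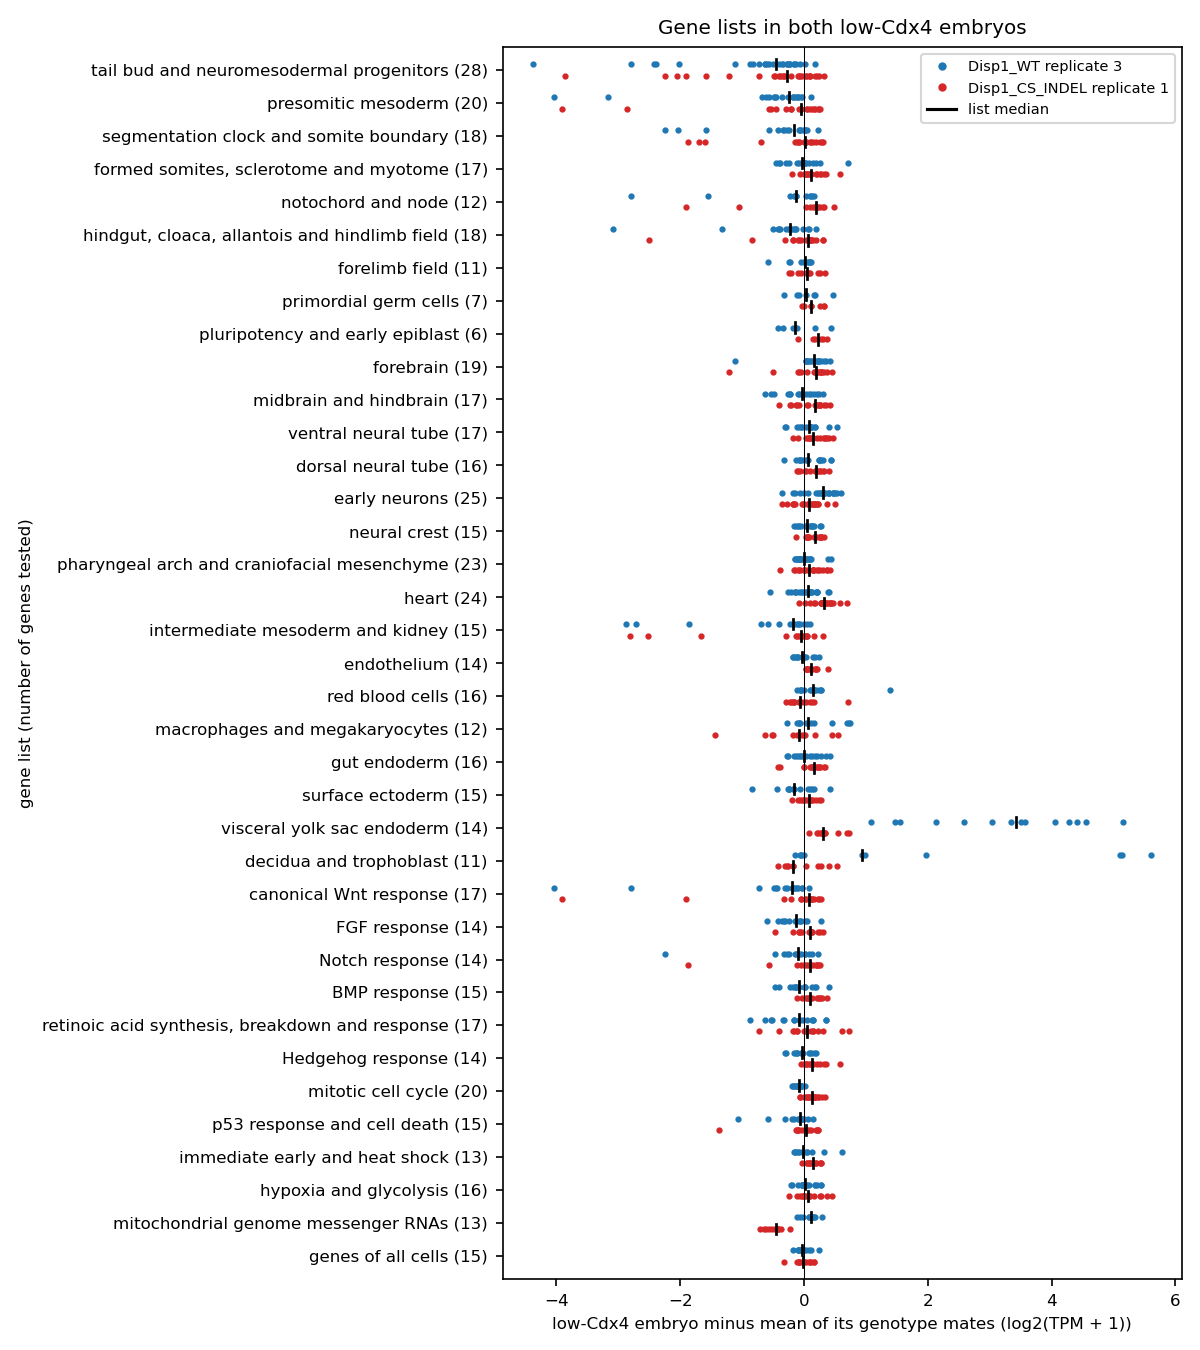
Difference of each low-Cdx4 embryo from its 3 genotype mates on log2(TPM + 1), for each gene (point) of each list other than the Hox lists, with the number of genes tested in brackets and the list median as a black bar. Blue is Disp1_WT replicate 3 and red Disp1_CS_INDEL replicate 1. Points far to the left lie mainly in the caudal lists and in lists that share T, Msgn1, Hes7 or Hox genes with them. The yolk sac list lies far to the right in the low wild type (median 3.43) and slightly to the right in the low mutant (median 0.31).

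Few signalling readouts over the whole embryo were lower by the rule. Of 17 canonical Wnt response genes 2 were lower, T and Msgn1 themselves, and of 14 Notch response genes 1, Hes7. In the lists for FGF response (14 genes), BMP response (15), retinoic acid (17), Hedgehog response (14), mitotic cell cycle (20), immediate early and heat shock genes (13) and hypoxia and glycolysis (16), 0 were lower. By any amount, 4 retinoic acid genes lay below all 6 others and 2 above, and 1 passed the milder limit. The counts below and above were 3 and 1 for Wnt, 2 and 0 for FGF, and 2 and 1 for Notch. They were 1 and 0 for BMP and 0 and 0 for Hedgehog. Over all genes, 2.22% lay below and 3.14% above. Dusp6, an FGF-induced phosphatase gene, read 71.1 TPM against 84.4 ± 8.08 and 93.4 TPM against 87.3 ± 10.02 (SD, n = 3 each). Ptch1, the Hedgehog receptor and target, read 35.3 TPM against 38.4 ± 4.47 and 28.7 TPM against 26.5 ± 2.76 (SD, n = 3 each).

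The 4 higher genes were all of low level. Gcat_2 read 7.28 and 5.18 TPM against 1.20 to 3.82 TPM, and Gm49749 read 1.86 and 2.72 TPM against 0 to 1.52 TPM. Gm14440 read 1.42 and 1.59 TPM against 0 to 0.472 TPM, and Snord94, a small nucleolar RNA that guides RNA modification, 1.40 and 1.99 TPM against 0 to 0.493 TPM. None had a mean of at least 5 TPM over the 8 embryos.

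The embryo with the next lowest Cdx4 level, mutant replicate 2, was on the low side for part of the lower genes only. Over Cdx4 and the 32 lower genes it was the lowest of the 6 other embryos in 13. Cdx4 is in that count only because this embryo was singled out by its Cdx4 level. The rest include Cdx2 (9.51 TPM), T (10.4 TPM), Tbx6 (8.40 TPM), Msgn1 (11.9 TPM), Evx1 (3.77 TPM) and Nkx1-2. Of the lower genes in the tail bud and presomitic lists, only Fgf17 was not lowest in it. For 4 genes it was the highest of the 6, including Hoxd12 (8.27 TPM) and Tbx4 (11.6 TPM). The other 5 embryos were lowest in 1 to 7 genes each. Among the posterior Hox genes, mutant replicate 2 was lowest of the 6 for Hoxc10, at 40.8 TPM, and Hoxd11, at 5.07 TPM.

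Levels at E8.5, about a day earlier, are set beside these without a test. Cdx4 read 17.7 to 61.8 TPM in the Myo10+/+ embryos and 25.1 to 45.4 TPM in the Myo10m1J/m1J embryos, so the limit of 1 TPM picked none of them. Of the 32 lower genes, the E8.5 wild types were all above the 6 other E9.5 embryos for 2 (Cdx2 and Nkx1-2), overlapped them for 14 and were all below them for 16. T, Msgn1 and Tbx6 were among the 14, and all posterior Hox genes among the 32 except Hoxa13 were among the 16.

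Hoxc10 illustrates the 16 genes that were below at E8.5. It read 0.140, 1.39, 0.681 and 0.454 TPM in the E8.5 wild types, like the 0.134 and 1.46 TPM of the low pair. Cdx2 illustrates the 2 that were above, with 25.9, 120, 109 and 92.4 TPM at E8.5 and 3.08 and 2.59 TPM in the low pair. The low embryos were thus near the E8.5 level for Hoxc10 and far under it for Cdx2. The libraries of the E8.5 wild types held 19.1% to 25.8% of their TPM in abundant structural RNAs, against at most 0.00964% at E9.5, which lowers every other TPM there. With those RNAs left out and TPM rescaled, the counts were 4 above, 13 overlapping and 15 below.

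The Disp1 genotype, which the labels give and the choice of the pair did not use, was tested with limma on log2(TPM + 1). Over all 8 embryos 3 of 13712 genes were called (0.0219%), and without the low pair 3 again (0.0219%), the same genes each time. These were Srp9 (log2 fold change -0.97, SE 0.048, adjusted p = 2.306e-05 by limma with Benjamini-Hochberg adjustment), Ifi204 (1.40, SE 0.10, adjusted p = 0.00063397) and Nkx2-9, a Hedgehog-responsive homeobox gene (-0.99, SE 0.11, adjusted p = 0.023042). Nkx2-9 was not called with a replicate block, without the filter on low values, or in 6 of the 8 fits that left out 1 embryo; it was called without either low embryo. Without the low pair the adjusted p values by limma were 0.0011944, 0.014372 and 0.008713. With all 8 embryos 310 genes had an unadjusted p under 0.05, and without the pair 412 did.

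Of the 32 lower genes, limma called 0 by genotype with all 8 embryos, and 0 had an unadjusted p under 0.05. These genes were picked for being low in 1 embryo of each genotype. The pair therefore largely offsets in this contrast and widens its error, so the fit with all 8 cannot decide whether they differ by genotype. The median log2 fold change was -0.04, 22 of the 32 were negative, and the median standard error was 0.60. Without the low pair the median standard error was 0.15, the median fold change was -0.09 with 25 of 32 negative, and limma again called 0. Then 2 had an unadjusted p under 0.05, Tbx6 (log2 fold change -0.32, SE 0.11) and T (-0.26, SE 0.11), both with a limma adjusted p of 0.9997. With 1 low embryo left in, the fold change followed the genotype that held it. Without the low wild type the median was -0.66 and all 32 genes were negative, and without the low mutant the median was 0.45 and 1 of 32 was negative.

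**Figure D5:**
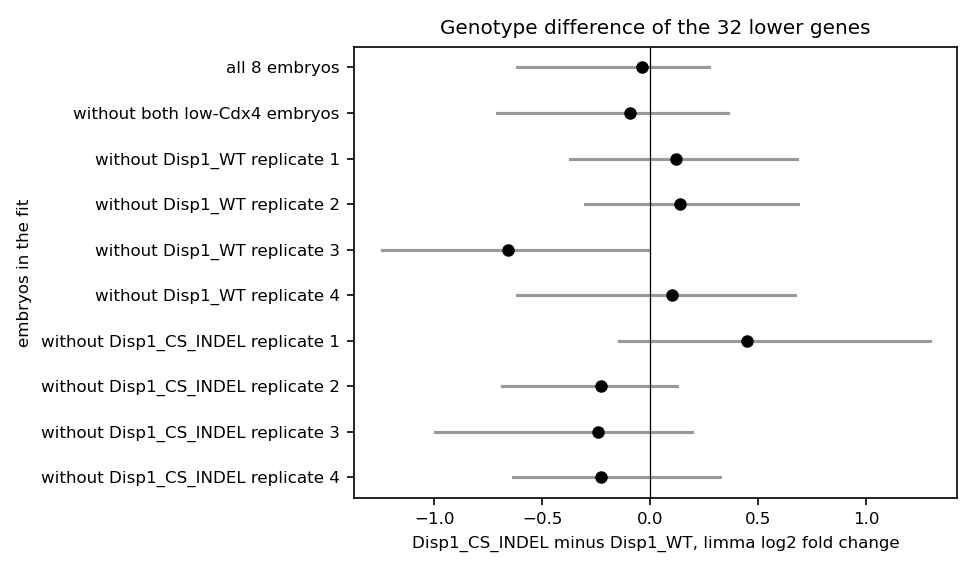
Disp1CS/INDEL minus Disp1 WT log2 fold changes from limma for the 32 lower genes, with the embryos named on the vertical axis left out of each fit. Points are the median over the 32 genes and lines run from the lowest to the highest gene. The median is -0.04 with all 8 embryos, -0.66 without the low wild type (replicate 3) and 0.45 without the low mutant (replicate 1).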

How the data were processed

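RNA of single whole embryos was sequenced (TruSeq RNA kit, NovaSeq instrument, per the labels' protocols), and embryos were frozen singly and purified together. The deposited table holds TPM per gene symbol for 17 libraries, and the authors' values sum to 1000000 in each. The submitters' processing notes name GRCm39 (mm39). How reads became TPM is not given in the sources used here. Since TPM keeps no depth, no interval or detection floor is given.

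Of 41709 symbols, 13712 reached 1 TPM in 2 or more of the 8 E9.5 embryos. Embryos with Cdx4 under 1 TPM were compared with the mean of the 3 other embryos of their genotype on log2(TPM + 1), as a description. Folds of genes near 1 TPM are understated on this scale. The genotype was tested with limma 3.58.1 (R 4.3.3, mean-variance trend, Benjamini-Hochberg at 0.05), checked on simulated data. Named were Cdx4, the 30 lower and 10 higher genes with the largest mean differences, caudal and Hox list genes, the 4 most abundant genes of other lists and their lower or higher genes. The members, the 53 gene lists and the tests were chosen with earlier results of these data known. Neighbouring genes came from GENCODE M21 (32 of 33 symbols matched), whose build differs, so only promoters carry coordinates. No library pair was identical. Alternatives tried were no filter on low values, a minimum mean of 5 TPM, 0.1 as pseudocount, scaling by median of ratios, abundant RNAs left out, pooled genotypes, a limit of 0.5, each low embryo alone, a replicate block and each embryo left out.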

Additional observations from a re-analysis of the deposited data

Results flagged for a closer look

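Within each genotype of 4 embryos, Dixon's criterion (a gap to the nearest embryo that takes up most of the group's range) was applied to Cdx4, the 32 lower and the 4 higher genes, 37 genes and 74 groups of 4 in all. In 14 groups 1 embryo stood apart, always a low-Cdx4 embryo, 8 times the wild type and 6 times the mutant. Chance alone gives such a mark in about 1 in 20 groups, and these genes were picked because the pair differed, so the number supports nothing further.

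In the low wild type the marked levels were 0.134 TPM of Hoxc10, 0.104 TPM of Msgn1, 0.495 TPM of Tbx6, 0.375 TPM of Tbx4, 1.32 TPM of T, 3.08 TPM of Cdx2, 0.338 TPM of Evx1os and 2.94 TPM of Ttc30b, each far under the other wild types. In the low mutant they were 0.547 TPM of Gm28309, 1.92 TPM of Hoxa10, 0.462 TPM of Gm53 and Hoxc11 listed at 0.0 TPM, each far under the other mutants, and 1.59 TPM of Gm14440 and 1.99 TPM of Snord94, each above other mutants that were all listed at 0. Cdx4 itself was not marked, because mutant replicate 2 lay between the low mutant and the others and the wild types without the low one were themselves spread.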

How the results depend on the processing

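The 32 lower genes were all counted again under a pseudocount of 0.1, no filter, median-of-ratios scaling, abundant RNAs left out and pooled genotypes, which counted 32 to 39. The count became 18 with a mean TPM of at least 5 (fewer genes tested), 53 with a limit of 0.5, and 52 for the low wild type or 53 for the low mutant against its own genotype only. Leaving out each embryo gave 31 to 45, with 45 without either low embryo, where only 1 low embryo has to meet the rule. The 4 higher genes became 8 with a pseudocount of 0.1, 0 with a mean TPM of at least 5, 11 with a limit of 0.5, 96 for the low wild type alone and 25 for the low mutant alone. Leaving out each embryo gave 2 to 88, with 2 without mutant replicate 3, 17 without the low wild type and 88 without the low mutant. No single gene's difference changed sign, 66 of their values moved by more than the spread of the mates and 545 did not.

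The genotype test called 3 genes in the main setting, 5 with median-of-ratios scaling (Nkx2-2 and Olig2 were added; the cause was not tested) and 2 to 3 with each embryo left out. With a replicate block it called 2, without Nkx2-9. Same-numbered embryos correlated by 0.0887, 0.0893, -0.221 and 0.356 in their deviations, for replicates 1 to 4 in order. Both replicate 4 embryos had Ddx3y at 0, unlike the other E9.5 embryos. The labels give no litter, so whether a shared number marks a pairing is not known. No setting called any of the 32 lower genes by genotype. Fits that keep a low embryo could hardly do so. The genes were picked for low embryos lying far below their genotype mates, which widens the error. With 2 chosen embryos and no read depth, how precisely the near-zero levels are known cannot be stated.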
